A study of Mus musculus with 8 samples.

Results

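Iron, heme and ferroportin handling was described here by 10 genes named for their roles in iron uptake, storage and export and in heme breakdown: Tfrc, Hfe, Slc40a1, Cp, Hmox1, Cd163, Slc11a1, Slc11a2, Fth1 and Ftl1. The rule took array rows annotated with exactly 1 gene symbol and used no measured difference. It found 9 of the 10 genes, each on a single row, among 22180 genes measured. The ferritin light chain gene Ftl1 lay only on rows shared with other symbols and was not analysed here. RNA came from hepatic macrophages of male FVB/N mice aged 8 weeks, all of which received acetaminophen at 350 mg/kg into the peritoneum, an overdose that injures hepatocytes. At 12 h before the drug the rTF group received 25 µg of recombinant transferrin in the tail vein and the rCPS1 group 50 µg of recombinant CPS1, a urea cycle enzyme of hepatocyte mitochondria. Each group held 4 arrays. Transferrin, the iron carrier of plasma, was thus the control protein, and protein and amount changed together. The titles all read Mouse1 with a replicate number, so the labels do not say whether the replicates were separate mice. If they were not, the spread behind the p-values is technical.

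Macrophages of the liver clear old and damaged red cells and return their iron to plasma. Transferrin-bound iron enters cells through the transferrin receptor, hemoglobin bound to haptoglobin enters macrophages through CD163, heme oxygenase opens the heme ring and frees the iron, ferritin stores it, and ferroportin is the exporter through which it leaves the cell. Iron regulatory proteins bind the messenger RNA of several of these genes: when iron is scarce they stabilise the transferrin receptor message and hold back translation of ferritin and ferroportin. An array that measures messenger RNA therefore sees control of message stability and not control of translation.

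None of the 9 genes passed the test between the groups. With limma, 0 of the 9 had a Benjamini-Hochberg adjusted p under 0.05, against 0 (0%) of all 22180 genes, and 0 of the 9 had an unadjusted p under 0.05, against 4.67% of all genes. All 9 genes had overlapping groups, whereas the groups did not overlap for 2.92% of all genes. The 9 log2 differences, rCPS1 minus rTF, ran from -0.12 (Fth1) to 0.30 (Tfrc), with 4 above 0 and 5 below and a median of -0.0065, beside a median of -0.018 and 45.6% above 0 over all genes. The median absolute difference was 0.11 for the 9 genes and 0.11 for all genes. For 2 genes, Tfrc and Fth1, the difference was larger than the SD between replicates within a group, and for the other 7 it was smaller. The number of arrays limits the precision: the 95% interval of a member's difference extended a median of 0.42 to either side on the log2 scale.

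**Figure D1:**
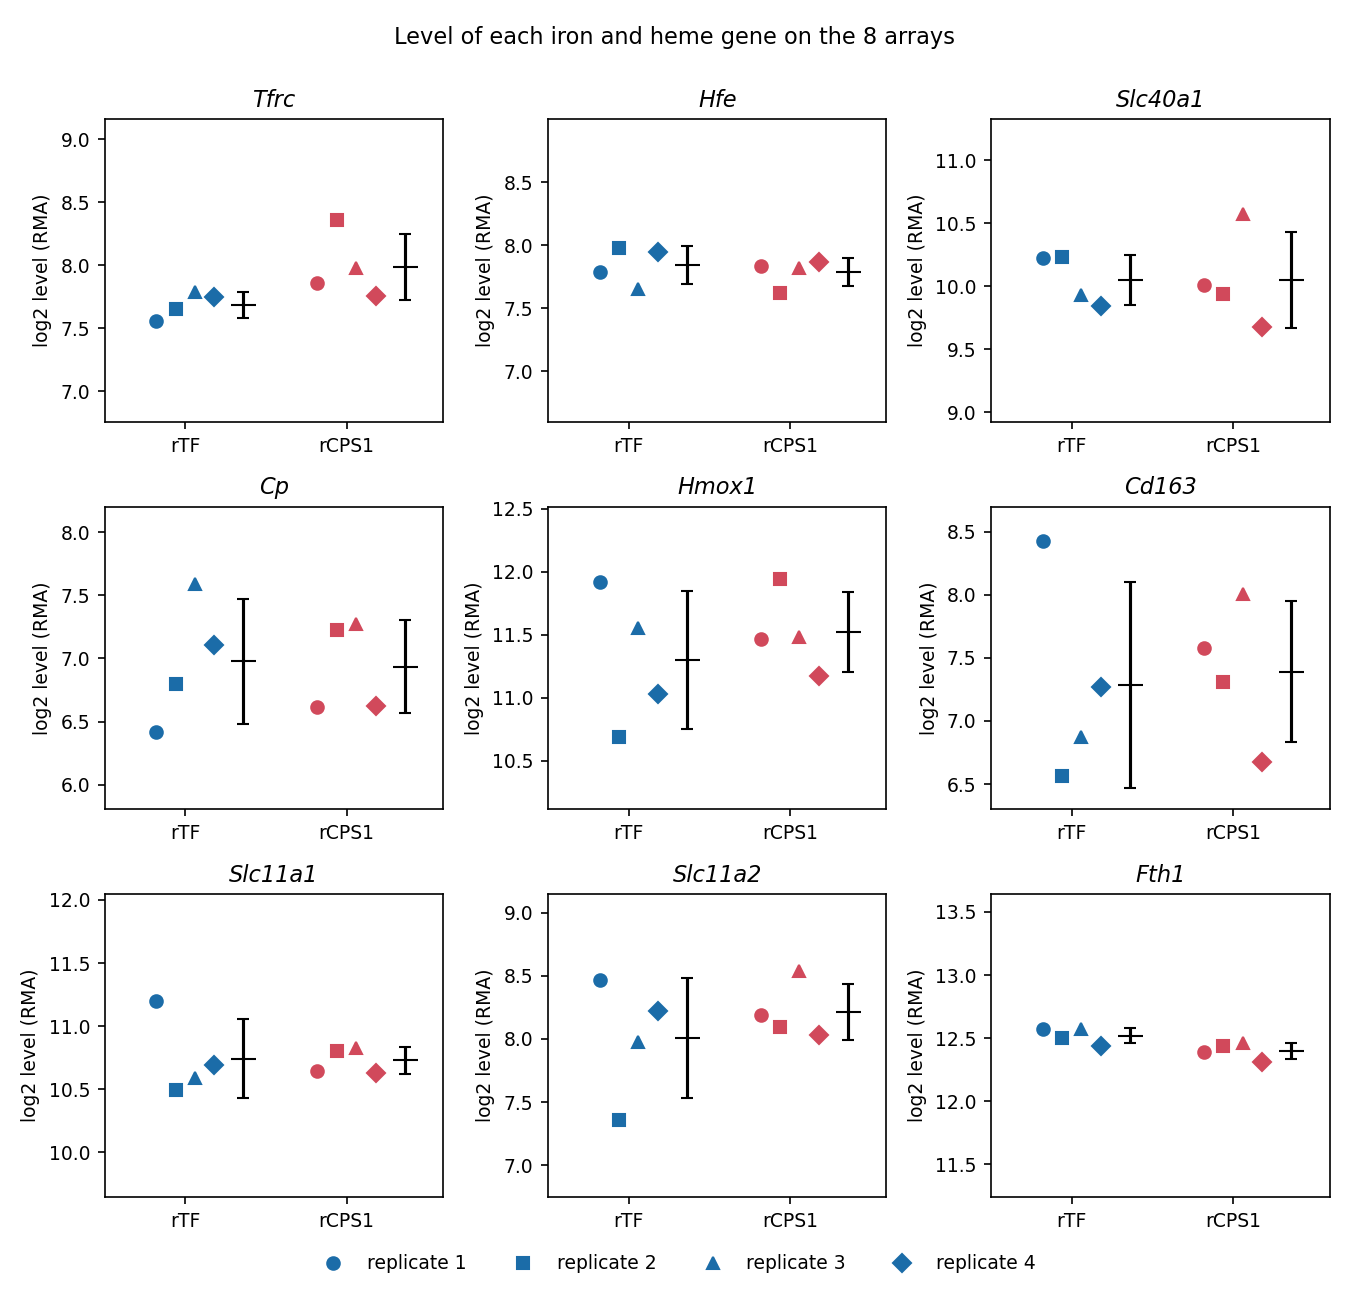
Log2 level (RMA) of each of the 9 genes on the 4 rTF arrays (blue) and 4 rCPS1 arrays (red), with marker shape for the replicate number and, to the right of each group, the mean with its SD (n = 4). Each vertical axis spans the same 2.4 log2 units. The groups overlap in all 9 panels, Cd163 spans the widest range and Fth1 the narrowest.

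Tfrc (probe set 17324835), which encodes the transferrin receptor that takes up iron-loaded transferrin, had the largest difference of the 9 genes. Its log2 level was 7.56, 7.66, 7.79 and 7.75 on rTF arrays 1 to 4 and 7.86, 8.36, 7.97 and 7.76 on rCPS1 arrays 1 to 4. All 4 rCPS1 arrays lay above the rTF mean, and 3 of them above every rTF array, while rCPS1 replicate 4 lay just below rTF replicate 3. The rTF mean was 7.69 ± 0.10 and the rCPS1 mean 7.99 ± 0.26 (SD, n = 4 each), which differ by 0.30 ± 0.14 (SE), or 1.23-fold, with a 95% interval from -0.020 to 0.62. In limma the adjusted p was 0.98 and the unadjusted p 0.063, and the two-sided exact permutation test gave p = 0.0571, where 0.0286 is the smallest that 4 arrays against 4 allow. The highest array, rCPS1 replicate 2, carried much of the difference, which was 0.18 without it. Erythroid precursors also hold much transferrin receptor, but of the 8 red cell precursor markers only 3 (Slc4a1, Epb42 and Klf1) lay on rows of their own. Their mean log2 level ran from 3.26 to 4.43 with rTF and from 3.41 to 3.80 with rCPS1 and was 3.58 on rCPS1 replicate 2, where Tfrc was highest. Only 1 of these 3 markers lay above the median level of all genes, and the part of red cell precursors in the Tfrc values was not tested.

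The start of the Tfrc gene is shown because the gene had the largest difference and because its promoter is known for a hypoxia response element, the site through which hypoxia-inducible factors raise transferrin receptor expression. The stretch is chr16:32608881-32608910 of GRCm38.p6, plus strand, from the RefSeq promoter table. The capitals mark ACGTG, the core of that element, which is also part of the E-box CACGTG. Here the base before the core is t, so the site does not spell that E-box.
Tfrc: cctcggtaggtgtACGTGcggaaggaagtg
The core begins 228 bases upstream of the start site annotated at position 32609122 and lies across another annotated start site at 32608896. Promoter windows (250 bases before to 50 after a start site) were matched for 7 of the 10 genes, in 10 windows. ACGTG, searched on both strands, occurred in 3 of these 10 windows, of the 2 genes Tfrc and Cd163, against 19.6% of 32851 promoter windows. The Tfrc windows overlap and share the same site, which was thus counted in each, and by gene the match occurred in 2 of 7. The antioxidant response core TGACNNNGC, also searched on both strands, occurred in 1 of the 10, of Hfe, against 12.4% of windows. These matches describe letters in the windows and no binding was measured.

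Hfe (probe set 17291211), whose product binds the transferrin receptor and takes part in iron sensing, was nearly level. Its values were 7.79, 7.98, 7.66 and 7.94 on rTF arrays 1 to 4 and 7.84, 7.62, 7.82 and 7.87 on rCPS1 arrays 1 to 4. The rCPS1 values fell inside or just below the rTF range. The difference was -0.056 ± 0.12 (SE), with a 95% interval from -0.32 to 0.20 (limma adjusted p = 0.986), and it was -0.0011 without rCPS1 replicate 2 and -0.011 without rTF replicate 2. The lowest Hfe value and the highest Tfrc value were both on rCPS1 replicate 2.

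Slc40a1 (probe set 17222777) encodes ferroportin, the only known cellular iron exporter of mammals. Its log2 level was 10.22, 10.23, 9.93 and 9.85 on the rTF arrays and 10.01, 9.94, 10.57 and 9.68 on the rCPS1 arrays, in replicate order. Both the highest and the lowest of the 8 values were in the rCPS1 group, which enclosed all 4 rTF values. The group means were 10.05 ± 0.20 and 10.05 ± 0.38 (SD, n = 4 each), a difference of -0.0065 ± 0.19 (SE) with a 95% interval from -0.43 to 0.42 (limma adjusted p = 0.999). The interval corresponds to between 0.743-fold and 1.33-fold, so smaller changes in either direction could not be told from 0 with these arrays, and its sign turned when any of 5 single arrays was left out. The highest ferroportin value, on rCPS1 replicate 3, was on the array where the mean of the 8 Kupffer cell markers was highest too (9.90, against 8.89 to 9.61 on the other arrays). The Kupffer cell mean was 9.01 on rTF replicate 2, where ferroportin was second highest, and 9.14 on rCPS1 replicate 4, where ferroportin was lowest. The part of Kupffer cells in the Slc40a1 values was not tested.

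Cp (probe set 17396260) encodes ceruloplasmin, the plasma copper oxidase that loads exported iron onto transferrin and that hepatocytes secrete. Values were 6.42, 6.80, 7.59 and 7.10 with rTF and 6.61, 7.23, 7.28 and 6.62 with rCPS1, in replicate order. The rTF arrays alone spanned the whole range of 1.17 log2 units. The difference was -0.043 ± 0.26 (SE), with a 95% interval from -0.61 to 0.53 (limma adjusted p = 0.993), and it was above 0 without rTF replicate 3 (0.16), rCPS1 replicate 1 (0.064) or rCPS1 replicate 4 (0.062). Cp was highest on rTF replicate 3, where the mean of the 9 hepatocyte markers was also highest, at 8.74 against 7.62 to 8.34 on the other arrays. Cp was lowest on rTF replicate 1, where the hepatocyte mean was 8.26. The part of hepatocyte RNA in the Cp values was not tested. In RNA from a bulk preparation, fewer cells of a type and less RNA per cell cannot be told apart.

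Hmox1 (probe set 17502573) encodes heme oxygenase 1, the inducible enzyme that breaks heme into iron, carbon monoxide and biliverdin. It stood at 11.92, 10.69, 11.55 and 11.03 on rTF arrays 1 to 4 and at 11.47, 11.94, 11.48 and 11.17 on rCPS1 arrays 1 to 4. The rCPS1 values were closer together, and the lowest 2 of the 8 values were on rTF replicates 2 and 4. The means were 11.30 ± 0.55 and 11.52 ± 0.32 (SD, n = 4 each), a difference of 0.22 ± 0.26 (SE) with a 95% interval from -0.37 to 0.80 (limma adjusted p = 0.98, exact permutation p = 0.514). Without rTF replicate 2 the Hmox1 difference was 0.015, and without rTF replicate 1 it was 0.43.

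Cd163 (probe set 17462843), the macrophage receptor for hemoglobin bound to haptoglobin, varied most of the 9 genes. Its values were 8.43, 6.57, 6.87 and 7.27 on the rTF arrays and 7.58, 7.31, 8.01 and 6.68 on the rCPS1 arrays, in replicate order. The highest and the lowest array, both rTF, differed by 1.86 log2 units, or 3.64-fold. Between the groups the difference was 0.11 ± 0.39 (SE), with a 95% interval from -0.77 to 0.99 (limma adjusted p = 0.988). Leaving out rTF replicate 1 gave 0.49 and leaving out rTF replicate 2 gave -0.13, and the Cd163 difference was also below 0 without rTF replicate 3 (-0.031) or rCPS1 replicate 3 (-0.099), so no direction could be given.

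The NRAMP family carries divalent metals across membranes with protons. Slc11a1 (probe set 17214197), the member found in the phagosomes of macrophages, was at 11.20, 10.49, 10.59 and 10.69 with rTF and at 10.64, 10.80, 10.83 and 10.63 with rCPS1. The rCPS1 values lay within 0.20 of each other inside the rTF range, and rTF replicate 1 stood above the other arrays. The difference was -0.017 ± 0.16 (SE), with a 95% interval from -0.37 to 0.34 (limma adjusted p = 0.995), and it was above 0 without rTF replicate 1 (0.13), rCPS1 replicate 1 (0.013) or rCPS1 replicate 4 (0.014). Slc11a2 (probe set 17321683), known as DMT1, moves iron out of endosomes after transferrin uptake. Its values were 8.47, 7.36, 7.97 and 8.22 with rTF and 8.19, 8.09, 8.54 and 8.03 with rCPS1. All 4 rCPS1 values lay above the rTF mean, yet 2 of the rTF values lay above 3 of the rCPS1 values. The difference of 0.21 ± 0.22 (SE; 95% interval -0.29 to 0.71, limma adjusted p = 0.98) rested on rTF replicate 2 and was -0.0081 without that array.

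Fth1 (probe set 17357418) encodes the ferritin heavy chain, which oxidises iron for storage, and varied least. Its log2 level was 12.57, 12.50, 12.57 and 12.44 on the rTF arrays and 12.39, 12.44, 12.46 and 12.31 on the rCPS1 arrays, in replicate order. All 4 rCPS1 arrays lay below the rTF mean, and the groups overlapped only through rTF replicate 4. The means were 12.52 ± 0.062 and 12.40 ± 0.064 (SD, n = 4 each), a difference of -0.12 ± 0.098 (SE), or 0.921-fold, with a 95% interval from -0.34 to 0.10. With a further quantile normalization the Fth1 difference was -0.066. In limma the adjusted p was 0.98 and the unadjusted p 0.254, and the exact permutation test gave p = 0.0571. The limma standard error is larger than the spread of the arrays alone would give, because it draws a gene's variance towards that of all genes. Ferritin genes have processed pseudogenes whose sequences the array may not separate, so the Fth1 value is uncertain.

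**Figure D2:**
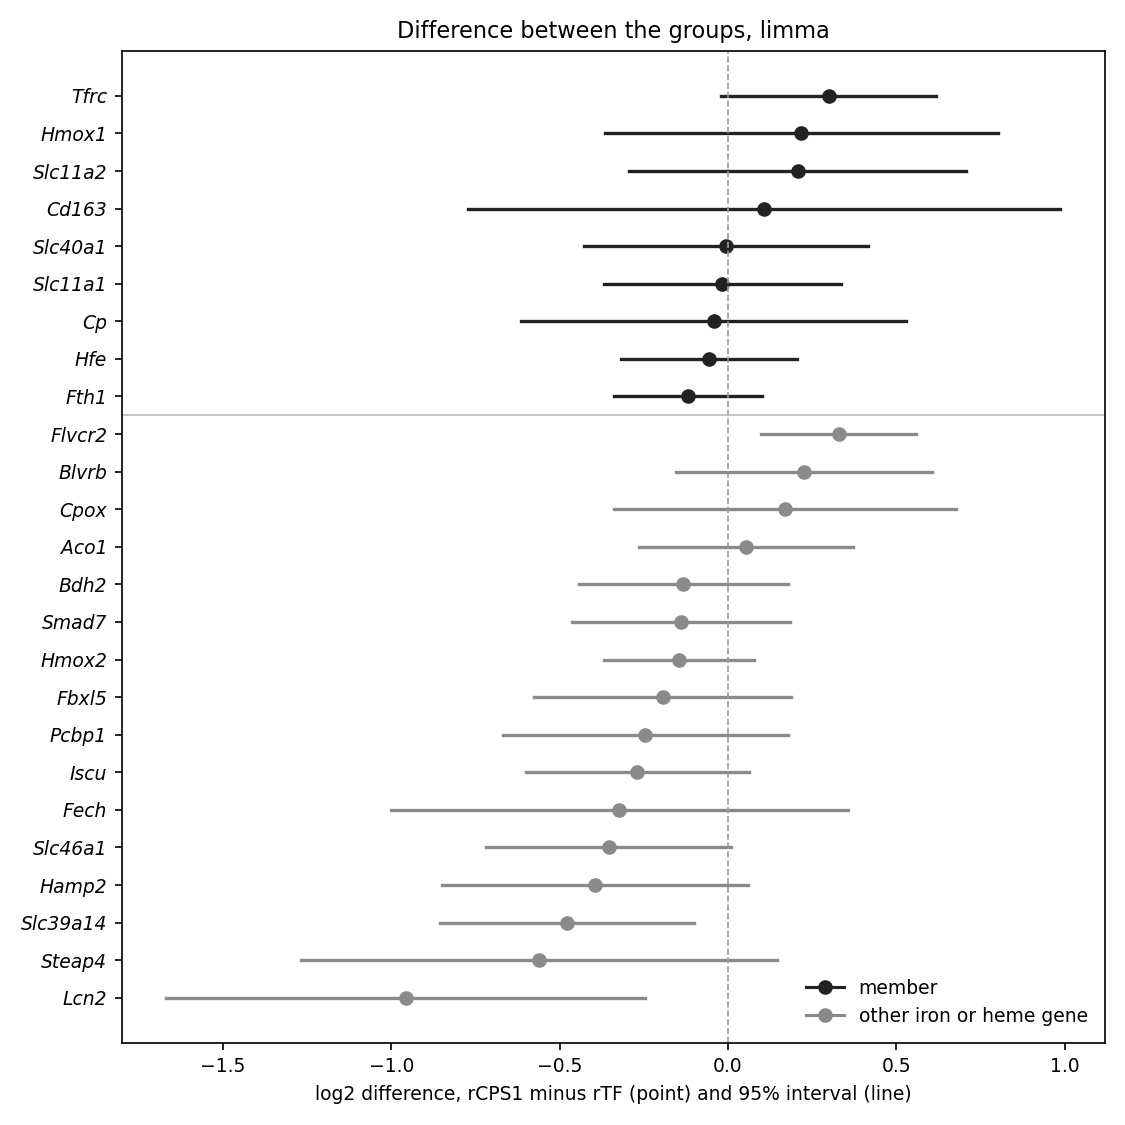
Log2 difference between the groups (rCPS1 minus rTF, points) with the 95% interval from limma (lines) for the 9 members (black, above the grey line) and 16 other iron and heme genes (grey), up to 2 of smallest p from each of 8 lists. The intervals of all 9 members include 0, and those of Lcn2, Slc39a14 and Flvcr2 do not before adjustment.

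Differences between arrays of the same group were larger than those between the groups for most of the 9 genes, and some genes shared them. On rTF replicate 2 Hmox1, Cd163, Slc11a1 and Slc11a2 each had their lowest value of the 8 arrays. On the same array Hfe had its highest value, and 3 of the 9 genes lay above their own mean. On rTF replicate 1 Cd163 and Slc11a1 had their highest values, while Tfrc and Cp had their lowest. On rCPS1 replicate 3, 8 of the 9 genes lay above their own mean over the arrays, and on rCPS1 replicate 4, 8 of the 9 lay below it. Cell type markers also varied between the arrays. On rTF replicate 2 the mean of 6 T and NK cell markers was 8.30, against 6.51 to 7.27 on the other arrays, and the Kupffer cell marker mean was 9.01. On rCPS1 replicates 3 and 4 the Kupffer cell mean was 9.90 and 9.14, Hmox1 was 11.48 and 11.17 and Cd163 was 8.01 and 6.68. On rTF replicate 3 and rCPS1 replicate 2 the Kupffer cell mean was lower still, at 8.89 and 8.98. There Hmox1 was 11.55 and 11.94 and Cd163 was 6.87 and 7.31. The part of cell composition in these shared values was not tested.

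**Figure D3:**
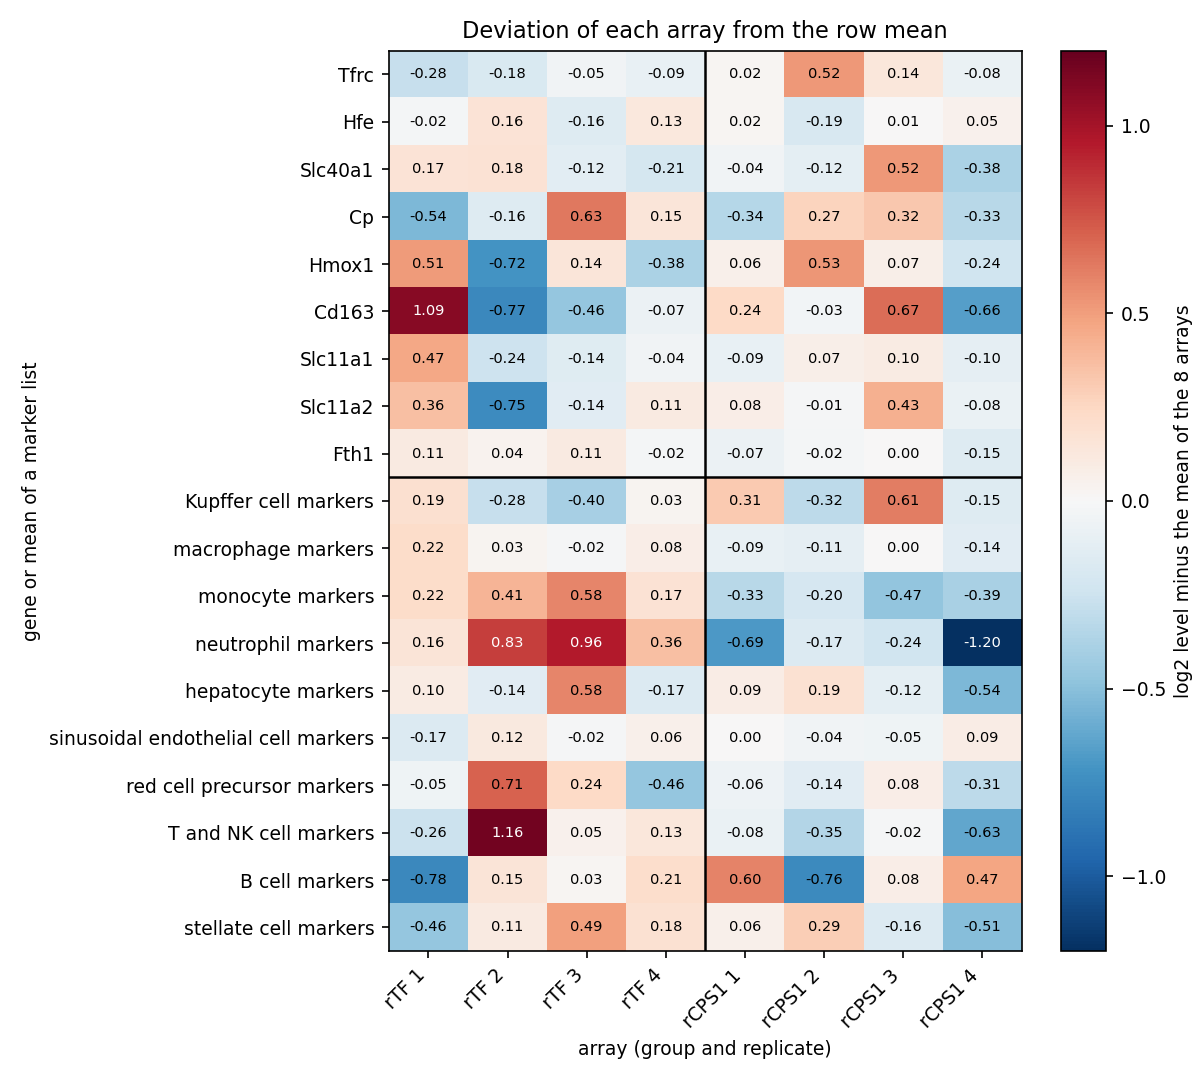
Log2 level of each array minus the mean of the 8 arrays, for the 9 genes (upper rows) and for the means of 10 lists of cell type markers (lower rows), with rTF arrays on the left and rCPS1 arrays on the right of the black line. Red is above and blue below the row mean, and the number in each cell is the deviation. Columns such as rTF replicate 2 and rCPS1 replicate 4 are mostly blue among the upper rows, and only the monocyte and neutrophil lists separate the groups.

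The RNA held the labelled cell type together with others. All 8 Kupffer cell markers and all 6 general macrophage markers lay above the median level of all genes, but so did all 7 sinusoidal endothelial and all 9 hepatocyte markers. The Kupffer cell mean was 9.18 ± 0.27 with rTF and 9.41 ± 0.42 with rCPS1 (SD, n = 4 each). The general macrophage mean was 10.23 with rTF and 10.06 with rCPS1. The sinusoidal endothelial mean was higher, at 11.75 in both groups, and the hepatocyte mean was 8.25 with rTF and 8.06 with rCPS1. The part of each cell type in the levels of the members was not tested. The monocyte marker mean ran from 8.63 to 9.04 with rTF and from 7.98 to 8.25 with rCPS1, and the neutrophil marker mean from 6.42 to 7.22 and from 5.06 to 6.09, so that these lists did not overlap between the groups. By gene, 3 of 6 monocyte and 5 of 8 neutrophil markers had rCPS1 below rTF on every array, against 1.97% of all genes. So had 2 of 6 general macrophage and 1 of 6 T and NK cell markers. The lists were chosen with earlier results of these data known. Of these markers 0 had a limma adjusted p under 0.05, and the smallest was 0.862. Array medians lay between 3.55 and 3.68 on the log2 scale.

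The members of largest spread over the 8 arrays were Cd163, Hmox1 and Cp, and the genes with the most similar profile were sought among 10410 named genes above the median level. The likeness is Pearson's r over the 8 arrays, as a description, and genes measured on the same arrays share every difference in cell content and RNA quality. For Hmox1 the closest 3 were Gclm (r = 0.99, Spearman's rho = 0.976), Gclc (r = 0.969, rho = 0.952) and Gsr (r = 0.968, rho = 0.929). Gclm and Gclc encode the subunits of the enzyme that limits glutathione synthesis, and Gsr encodes glutathione reductase. Gclm was 10.21, 8.76, 9.64 and 9.04 on rTF arrays 1 to 4 and 9.63, 10.31, 9.77 and 9.24 on rCPS1 arrays 1 to 4, low on the same rTF replicates 2 and 4 as Hmox1 and highest, like Hmox1, on rCPS1 replicate 2. Its group difference was 0.33 ± 0.32 (SE; limma adjusted p = 0.98). For Cd163 they were Acp5, the tartrate-resistant acid phosphatase of osteoclasts and macrophages (r = 0.98, rho = 0.952), Sgpl1, the sphingosine phosphate lyase (r = 0.974, rho = 0.976), and Tab2, an adaptor of TAK1 signalling (r = 0.973, rho = 0.952). Acp5 ran from 8.90 to 9.70 over the arrays and was high on rTF replicate 1 and rCPS1 replicate 3 as Cd163 was. For Cp they were Esyt2 (r = 0.948, rho = 0.952), Ankrd13c (r = 0.944, rho = 0.857) and Ccp110 (r = 0.944, rho = 0.881). For each member these were the highest 3 of 10410 values of r over only 8 arrays. How high r runs by such selection alone was not tested.

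**Figure D4:**
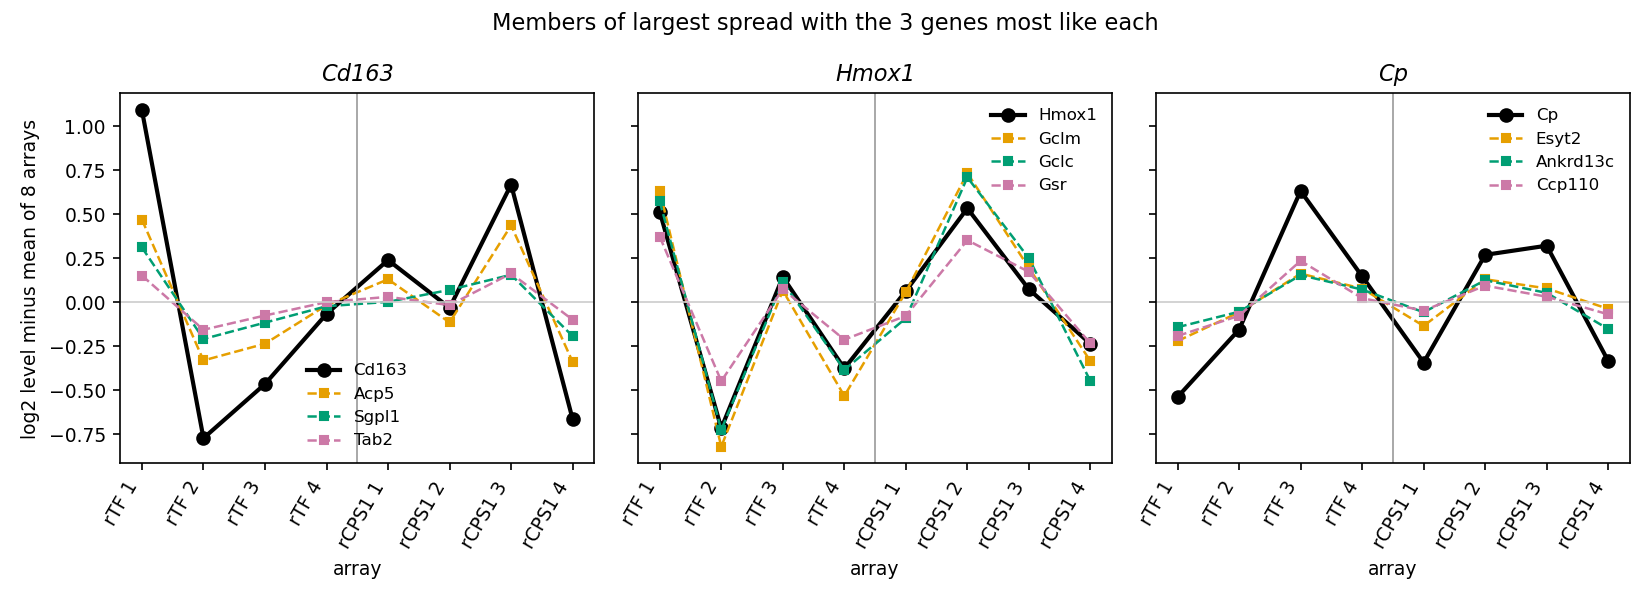
Log2 level minus the mean of the 8 arrays for Cd163, Hmox1 and Cp (black) and the 3 genes most like each by Pearson's r (colours), with rTF arrays left and rCPS1 arrays right of the grey line. Lines only join the points of 1 gene, since replicates have no order. The glutathione genes Gclm and Gclc follow Hmox1 in size as well as in direction. The genes most like Cd163 and those most like Cp span a much smaller range than the member itself.

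Of 64 listed symbols of other genes of iron and heme handling, 58 were measured on a row of their own, 2 (Trf and Nfs1) only on shared rows and 4 on no row with their symbol, 1 of which, Hfe2, is the older symbol of the measured Hjv. In limma 0 of the 58 had an adjusted p under 0.05, 1 had an unadjusted p under 0.05 with a higher level (against 1.88% of all genes) and 2 with a lower level (against 2.79%). The median difference was -0.045, with 23 higher and 35 lower, beside 10123 higher and 12057 lower of all 22180 genes.

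Lcn2 and Slc39a14 were the 2 lower genes. Lcn2, lipocalin 2, binds the siderophores with which bacteria capture iron. It was at 8.07, 7.74, 8.61 and 8.16 on the rTF arrays and at 6.84, 7.88, 7.65 and 6.37 on the rCPS1 arrays, where only rCPS1 replicate 2 reached into the rTF range. The difference was -0.96 ± 0.32 (SE; unadjusted p = 0.0135 and adjusted p = 0.98 in limma, exact permutation p = 0.0571). Lcn2 is also a granule gene of neutrophils, whose marker mean was 6.84 ± 0.38 with rTF and 5.69 ± 0.48 with rCPS1 (SD, n = 4 each), with all 8 markers lower, and the part of neutrophils in the Lcn2 value was not tested. Slc39a14, known as ZIP14, takes up iron that is not bound to transferrin. Its values were 6.51, 6.06, 6.56 and 6.06 with rTF and 5.84, 6.10, 5.83 and 5.51 with rCPS1, a difference of -0.48 ± 0.17 (SE; unadjusted p = 0.0179 and adjusted p = 0.98 in limma). Among iron uptake and transport genes 2 of 14 were higher, against 45.6% of all genes, and 12 lower, such as the metalloreductase gene Steap4 (-0.56 ± 0.32). Slc39a14 was the 1 gene of the 14 with an unadjusted p under 0.05 in limma, and only 8 lay above the median level of all genes.

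Among heme import and export genes 4 of 9 were higher, against 45.6% of all genes. Flvcr2, a membrane transporter of the heme exporter family, was the 1 higher gene with an unadjusted p under 0.05. It was at 2.90 to 3.13 on the rTF arrays and 3.28 to 3.42 on the rCPS1 arrays, a difference of 0.33 ± 0.10 (SE; unadjusted p = 0.00985 and adjusted p = 0.98 in limma). The groups did not overlap for Flvcr2, but its level was below the median of all genes, where a row may read background. Slc46a1, a folate transporter that was also described as a heme carrier, differed by -0.35 ± 0.16. The porphyrin transporter gene Abcb6, which the rule for naming genes did not pick and which was chosen after its values were seen, was the other gene with rCPS1 above rTF on every array (0.25 ± 0.12), so 2 of 58 genes had that pattern, against 0.947% of all genes.

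Of the other genes of heme breakdown and its regulators 7 of 8 had a higher mean with rCPS1, as had 45.6% of all genes, with a median difference of 0.12, and 0 of the 8 had an unadjusted p under 0.05 in limma. The biliverdin reductase gene Blvrb differed by 0.23 ± 0.17 (SE). The exception was Hmox2, the constitutive heme oxygenase, at 7.83 to 8.04 with rTF and 7.72 to 7.79 with rCPS1, a difference of -0.15 ± 0.10 (limma adjusted p = 0.98), and the 1 gene of the 58 with rCPS1 below rTF on every array, against 1.97% of all genes. Heme synthesis genes were lower for 5 of 7, against 12057 of all 22180 genes. Fech, which inserts iron into the ring, was lower (-0.32 ± 0.30), while Cpox was higher (0.17 ± 0.23).

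Of the ferritin turnover and iron chaperone genes 3 of 5 were lower, against 12057 of all 22180 genes. Among the 3 were the iron-sulfur scaffold gene Iscu (-0.27 ± 0.15, SE) and the chaperone gene Pcbp1 (-0.25 ± 0.19). The iron regulatory protein gene Aco1, which controls the Tfrc message, differed by 0.053 ± 0.14, and Fbxl5, the iron-sensing ubiquitin ligase subunit that marks iron regulatory proteins for degradation, by -0.19 ± 0.17. In the hepcidin axis 6 of 9 were lower, again against 12057 of 22180. Among the 6 were Hamp2 (-0.40 ± 0.20) and the inhibitory Smad7 (-0.14 ± 0.14). Hamp2 lay below the median level of all genes, where a row may read background. Bdh2, a dehydrogenase linked to mammalian siderophore synthesis and also below that level, differed by -0.13 ± 0.14. All of these had limma adjusted p-values between 0.98 and 0.999.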

How the data were processed

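Expression was measured on 8 Affymetrix arrays from 400 ng of total RNA each, per the labels' protocols. The authors deposited log2 levels from RMA, which subtracts background, equalises the arrays' distributions and summarises each probe set. RMA and limma are named in the submitters' processing notes. A change common to most genes is therefore removed. The sources used here do not give the genome build, probe filters or the isolation of the macrophages. Of 41345 rows, 23521 had 1 gene symbol, and the row of highest mean was used per gene. The comparison used limma's lmFit and eBayes, two-sided (limma 3.58.1, R 4.3.3), with Benjamini-Hochberg adjustment over 22180 genes, and with exact permutation tests over 70 assignments. Scripts were tested on simulated data. Members and lists were chosen with earlier results of these data known. Named genes were the 9 members, up to 2 genes of smallest p per pathway list, the 3 genes most like each of the 3 members of largest spread, and marker genes. Any gene named beyond these is marked as picked with its values in view. Alternatives were a replicate block, a filter on level, trended and robust variance, array weights, quantile normalization, the mean of a gene's rows, all rows, a permutation test and each array left out. Same-numbered arrays did not deviate together, so the numbers were not taken as pairs.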

Additional observations from a re-analysis of the deposited data

Results flagged for a closer look

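Dixon's ratio compared the extreme array of a group with its other 3 arrays, for the 9 members, the 16 named pathway genes and the 10 marker list means. The extreme array stood apart in 1 of 70 groups, against 3.5 expected by chance at 1 in 20. That value was Hamp2, a hepcidin paralog, at 2.89 on rTF replicate 4, where the other rTF arrays read 1.99 to 2.12. No member stood apart in this way.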

How the results depend on the processing

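No member had an adjusted p under 0.05 under any of 16 alternatives, and the count of genes past that threshold was 0 in each. The replicate block, level filter, trended and robust variance, mean of rows, all rows and permutation test cannot change a member's difference. Only array weights, quantile normalization and leaving out an array could change its sign. Under those Tfrc, Hfe, Hmox1 and Fth1 kept their sign. Yet Hfe ranged from -0.12 to -0.0011, Hmox1 from 0.015 to 0.43 and Fth1 from -0.15 to -0.066. Tfrc ranged from 0.18 to 0.38 and had an unadjusted p of 0.0453 with trended and robust variance and of 0.0322 without rCPS1 replicate 4, with adjusted p from 0.902 to 0.999. The other 5 changed sign: with 1 array left out Slc40a1 ran from -0.18 (without rCPS1 replicate 3) to 0.12 (without rCPS1 replicate 4) and was above 0 in 5 of 8 cases, Slc11a1 from -0.10 to 0.13, Cp from -0.23 to 0.16, Cd163 from -0.13 to 0.49 and Slc11a2 from -0.0081 to 0.36, and with array weights Slc40a1 was 0.052 and Slc11a1 0.0052. The median member difference ran from -0.068 to 0.13, the latter without rTF replicate 1. Genes with an unadjusted p under 0.05 numbered 1035, and 547 among genes above the median level, 1879 among all rows and 648 by permutation, where fewer or more rows were tested or p-values are coarser. Deviations of same-numbered arrays correlated at -0.12 to 0.025. The replicate block can change only the p-values, since each replicate number occurs once per group. With it the limma adjusted p of Tfrc was 0.995 and no member passed.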

Other observations

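Further genes of the iron lists, chosen after their values were seen, also varied between arrays more than between groups. Spic, the transcription factor gene of red pulp macrophages that heme induces, was at 10.80, 9.49, 10.04 and 9.75 on rTF arrays 1 to 4 and at 10.07, 10.61, 10.14 and 9.94 on rCPS1 arrays 1 to 4, high and low on the same rTF replicates 1 and 2 as Hmox1. Hamp, the gene of the iron hormone hepcidin, read 10.77 on rTF replicate 1 and 10.73 on rCPS1 replicate 1 and between 9.08 and 9.81 on the other 6 arrays, a group difference of 0.18 ± 0.43 (SE; limma adjusted p = 0.988). Ltf, the lactoferrin gene of neutrophil granules, read 5.99 on rTF replicate 2 and 3.07 to 3.86 on the other arrays.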
